A study of Mus musculus with 18 samples.

Results

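The comparison described here is between ventricular cells sorted at embryonic day 12.5 (E12.5) and the same sorted population 1 day earlier, at E11.5. It rests on the 3 arrays labelled 12.5 and the 3 arrays labelled 11.5, 6 of the 18 arrays of the study, and on every gene measured, with the platelet, globin and heat shock genes set aside. Both groups came from Wt1GFPKI embryos, mice that carry the gene of green fluorescent protein (GFP) in the Wt1 locus. Ventricles were dispersed with enzymes, and GFP-positive cells, marked (M) in the labels, were collected by FACS and lysed. No treatment is labelled, the groups differ in embryonic day, and the labels do not state strain background, sex or how many embryos were pooled. The series title calls the cells cardiomyocytes that express the knock-in, and the study's stated purpose was to profile them at each day up to E16.5. The labels do not say whether replicates are separate litters, and the p-values cover no more than the spread among these samples, which may be technical.

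The zinc finger transcription factor made from Wt1 is known above all from the epicardium, the outer cell layer of the heart. At these stages of mouse development the epicardium covers the ventricles and sends cells into the wall that give rise to fibroblasts and mural cells, while cardiomyocytes divide and exchange early muscle proteins for those of the working heart. Lin28 and Igf2bp proteins, which bind RNA, and the targets of let-7 microRNAs are known to be expressed in early embryonic growth and to decline later in many tissues.

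Values are log2 probe intensities after background correction, given in the order of replicates 1, 2 and 3 of a stage. A change is the E12.5 mean minus the E11.5 mean on that scale, and folds are read from it, so they understate the change of dim genes. Of 45281 probes, 25369 were above background on at least 3 of the 18 arrays and were tested with limma; they stand for 12871 named genes, each represented by its brightest probe. A gene was called changed at a Benjamini-Hochberg adjusted p under 0.05 over all tested probes. Because the deposited values had been quantile-normalized, every one of the 6 arrays had the same number of probes above background, 20176, a count that does not tell the arrays apart. The number of arrays and the spread between them limit the precision.

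The labelled cell type was checked against its markers. Of 26 tested sarcomere genes 24 were above background on every E11.5 array and 24 on every E12.5 array, and Myom2 was not above background on any of the 6. Their summed linear level lay between 125582 and 132581 at E11.5 and between 129992 and 134550 at E12.5. Actc1, the cardiac actin gene, lay between 13.59 and 13.81. Of 18 tested epicardial and mesothelial genes 13 were above background on every E11.5 array and 12 on every E12.5 array, with Aldh1a2 and Msln not above background on any of the 6. Their sums were 1532 to 1731 at E11.5 and 1267 to 1442 at E12.5. Sums of different lists cannot be set against each other, since each probe has its own brightness. No probe was named for Wt1 itself or for Tnnt2, which were not analysed here. In such a bulk sample, fewer cells of a type and less RNA per cell cannot be told apart.

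The 3 E11.5 arrays correlated with each other at r of 0.991 to 0.992, and E12.5 replicates 2 and 3 at 0.991. E12.5 replicate 1 stood apart, closest to E13.5 replicate 1 (r = 0.986), which bears the same replicate number, and at a mean r of 0.984 with its own stage. It was also the 1 array of the 6 on which Xist, which coats the inactive X, was not above background (4.60, against 10.41 and 9.83 at E12.5 and 9.58, 8.18 and 8.98 at E11.5), whereas the Y-linked Eif2s3y was above background on all 6. Their part in the results was not tested, and results that rest on E12.5 replicate 1 are given without it below.

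Between E11.5 and E12.5, 403 of the 25369 probes passed the test (1.59%), 207 of them higher (0.816%) and 196 lower (0.773%). Without background correction the split was 166 higher and 236 lower. Among named genes 134 of 12871 rose (1.04%) and 138 fell (1.07%), 2.11% in all, and the median change over all of them was -0.01. Changes of at least 2-fold that passed were 40 rises (0.311% of named genes) and 26 falls (0.202%). The platelet, globin and heat shock lists held 62 tested genes, of which 9 rose and 15 fell, which leaves 125 rises and 123 falls among the other 12809 genes.

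The count of changed probes depended on single arrays. It was 208 without E11.5 replicate 2 and 223 without E12.5 replicate 3, and 393 without E12.5 replicate 1, of which 304 were among the 403.

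**Figure D1:**
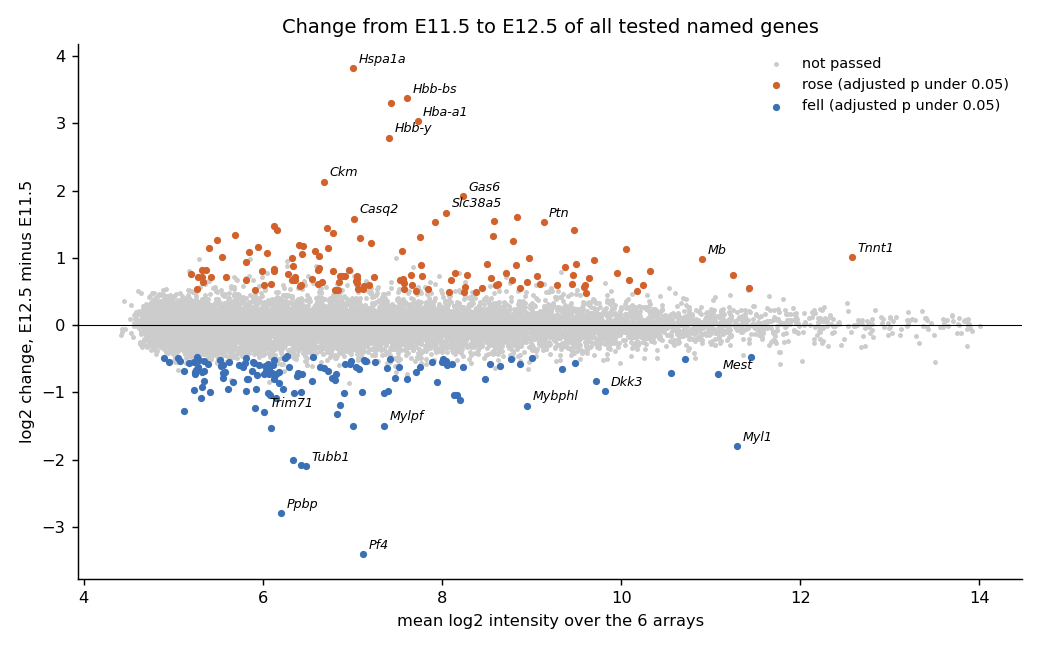
Each point is 1 of the 12871 tested named genes, with its mean log2 intensity over the 6 arrays on the horizontal axis and its log2 change from E11.5 to E12.5 on the vertical axis. Orange points rose and blue points fell at an adjusted p under 0.05; 134 rose and 138 fell, and most genes lie close to the median change of -0.01.

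The largest rise outside the set-aside lists was in Ckm, the muscle creatine kinase, which buffers ATP in contracting cells. Its values were 5.86, 5.25 and 5.74 at E11.5 and 7.66, 7.73 and 7.86 at E12.5. All E12.5 arrays lay well above all E11.5 arrays, a 4.38-fold rise (log2 change 2.13, SE 0.16, adjusted p = 4.02e-09). Casq2, cardiac calsequestrin, which holds calcium inside the sarcoplasmic reticulum, stood at 6.23, 5.81 and 6.64 and then at 7.80, 7.88 and 7.74. That was a 2.99-fold rise (log2 change 1.58, SE 0.16, adjusted p = 1.35e-06), and the E12.5 arrays were closer to each other than the E11.5 arrays. Mb, myoglobin, which stores oxygen in muscle, rose 1.97-fold, from 10.43, 10.34 and 10.48 to 11.22, 11.46 and 11.50 (log2 change 0.98, SE 0.13, adjusted p = 5.13e-05). Hspb6, a small heat shock protein abundant in muscle, went from 8.09, 7.97 and 8.03 to 9.75, 9.53 and 9.63. The stages were separated by more than 1 log2 unit, a 3.05-fold rise (log2 change 1.61, SE 0.12, adjusted p = 6.22e-09). The set-aside list of heat shock and immediate early genes, which does not hold Hspb6, had 3 rises (Hspa1a, Hspa1b and Ier3) and 0 falls among 25 tested genes. Of all named genes 1.04% rose, and the list median was 0.15. Hspa1a, the inducible HSP70, went from 4.89, 5.14 and 5.28 to 9.33, 8.70 and 8.73 (log2 change 3.82, SE 0.42, adjusted p = 2.84e-06), and the part of this list in the other results was not tested.

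The largest fall outside the set-aside lists was in another muscle gene, Myl1. It encodes an essential myosin light chain of fast skeletal muscle that is also made in the early heart. Myl1 was at 12.23, 12.21 and 12.16 at E11.5 and at 10.71, 10.31 and 10.16 at E12.5. The E11.5 arrays were close to each other and far above the E12.5 arrays, a 3.50-fold fall (log2 change -1.81, SE 0.17, adjusted p = 4.78e-07). Mylpf, the regulatory light chain of the same fast myosin, was at 8.01, 8.32 and 7.98 and then at 6.69, 6.77 and 6.37. It was 2.82-fold lower (log2 change -1.50, SE 0.16, adjusted p = 1.63e-06), with no overlap between the stages. Mybphl, a relative of myosin-binding protein H found in heart muscle, went from 9.49, 9.78 and 9.40 to 8.25, 8.46 and 8.34, a 2.30-fold fall (log2 change -1.20, SE 0.20, adjusted p = 0.000898).

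The promoters of these opposite movers are printed for reference, 250 bases before and 50 after the start of each gene, from RefSeq on build GRCm38.p6, 5′ to 3′ on the gene's strand. Ckm and Casq2 are muscle genes among the largest rises, and Myl1 and Mylpf are muscle genes among the largest falls. They lie at chr7:19410844-19411143 (Ckm, + strand), chr3:102086165-102086464 (Casq2, + strand), chr1:66945007-66945306 (Myl1, - strand) and chr7:127211358-127211657 (Mylpf, + strand). Capitals mark matches, on either strand, to CANNTG (the E-box bound by MyoD-type and other factors), GATA (the core of the motif bound by GATA factors), TATAAA (a form of the TATA box), the MEF2 motif and the CArG box of serum response factor. Other forms of the TATA box, such as TATATAA, were not marked.
Ckm: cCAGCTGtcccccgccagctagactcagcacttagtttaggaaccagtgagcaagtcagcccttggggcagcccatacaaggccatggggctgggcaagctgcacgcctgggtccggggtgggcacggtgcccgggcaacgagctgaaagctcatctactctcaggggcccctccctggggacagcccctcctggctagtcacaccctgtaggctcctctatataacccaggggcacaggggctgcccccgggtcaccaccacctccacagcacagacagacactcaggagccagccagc
Casq2: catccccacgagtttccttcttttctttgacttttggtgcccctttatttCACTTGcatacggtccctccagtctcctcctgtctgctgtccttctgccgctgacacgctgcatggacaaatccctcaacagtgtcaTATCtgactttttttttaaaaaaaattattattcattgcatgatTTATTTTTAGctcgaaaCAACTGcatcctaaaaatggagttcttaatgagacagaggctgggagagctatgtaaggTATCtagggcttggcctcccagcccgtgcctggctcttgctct
Myl1: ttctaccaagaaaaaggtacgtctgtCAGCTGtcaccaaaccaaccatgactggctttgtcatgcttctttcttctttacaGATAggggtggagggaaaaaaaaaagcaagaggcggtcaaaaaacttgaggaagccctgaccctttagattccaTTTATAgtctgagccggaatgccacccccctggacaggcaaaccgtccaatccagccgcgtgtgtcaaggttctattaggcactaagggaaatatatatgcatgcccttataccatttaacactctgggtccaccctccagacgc
Mylpf: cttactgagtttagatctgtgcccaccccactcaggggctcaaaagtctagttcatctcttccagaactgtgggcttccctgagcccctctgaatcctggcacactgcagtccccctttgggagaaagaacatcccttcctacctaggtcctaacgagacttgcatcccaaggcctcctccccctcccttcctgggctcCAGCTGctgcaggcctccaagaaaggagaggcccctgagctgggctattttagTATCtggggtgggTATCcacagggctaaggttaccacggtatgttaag
Every one of the 4 windows held at least 1 E-box, as did 72.3% of 32851 mouse promoter windows of this length. Counted from the start (+1), the E-box of Ckm began at -249, those of Casq2 at -200 and -52, that of Myl1 at -224 and that of Mylpf at -51. GATA, found in 57.9% of all windows, had 2 matches in Casq2, 1 in Myl1 and 2 in Mylpf. The MEF2 motif, found in 3.19% of all windows, matched in Casq2 at -69, where no other motif overlaps it. TATAAA, in 13.6% of windows, matched in Myl1 at -95 on the strand opposite to the gene. The CArG box, in 1.63%, matched in 0 of the 4. Whether any factor binds these windows was not measured.

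Few other genes of the contractile and calcium apparatus passed the test. Of 26 tested sarcomere genes 0 rose and 2 fell, Myl1 and Mybphl, against 1.04% and 1.07% of all named genes. The list median was 0.07, its mean -0.07 and the median over all genes -0.01. Arrays of the stages did not overlap for 12 of the 26, 6 upward and 6 downward, against 9.27% and 11.5% of all named genes. Myh6 and Myh7, the cardiac myosin heavy chains, changed by -0.24 (SE 0.16, adjusted p = 0.678) and 0.18 (SE 0.20, adjusted p = 0.840). Myl7, the atrial light chain, lay at 11.92, 12.17 and 12.08 and then at 11.43, 11.73 and 11.30, without overlap, but its change of -0.57 did not pass (adjusted p = 0.140). Myoz2, a Z-disc protein, was at 10.30, 9.999 and 10.49 and then 10.54, 11.02 and 10.88, and its change of 0.55 missed the threshold (adjusted p = 0.0602) but passed without E12.5 replicate 1 (adjusted p = 0.0171). Tnnt1, the slow skeletal troponin T, which is not on that list, did rise, from 12.22, 11.81 and 12.20 to 12.82, 13.10 and 13.35 (2.02-fold, log2 change 1.01, SE 0.22, adjusted p = 0.0138). Its call was lost in 5 of 14 alternatives, among them those without E11.5 replicate 2, E12.5 replicate 2 or E12.5 replicate 3, with an adjusted p of up to 0.120.

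Casq2 was the 1 riser among 22 tested genes of calcium handling and excitation, and 0 fell, against 1.04% and 1.07% of all named genes. The list median was -0.09 and its mean 0.04. Nppa, the atrial natriuretic peptide, differed widely among the E12.5 arrays, at 13.31, 12.33 and 11.89 against 12.63, 12.97 and 12.92, with the highest and the lowest value of the 6 both at E12.5, and its change of -0.33 did not pass (SE 0.26, adjusted p = 0.746). That change was -0.73 without E12.5 replicate 1, which did not pass either. Of 14 genes of muscle energy supply 2 rose, Ckm and Mb, against 1.04% of all named genes, and 0 fell (median 0.15). Fabp3, the heart's fatty acid carrier, was higher on each E12.5 array (11.79, 11.85 and 11.96 against 11.42, 11.38 and 11.51) and missed the threshold with a change of 0.43 (adjusted p = 0.0616). None of 25 cardiac transcription factors passed, against 2.11% of all named genes in either direction. Their changes ran from -0.55 for Hand1 (adjusted p = 0.147) upward, with a median of -0.05, and Nkx2-5 changed by 0.13 (adjusted p = 0.898). Without E12.5 replicate 1 the change of Hand1 was -0.77 and passed (adjusted p = 0.0166).

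**Figure D2:**
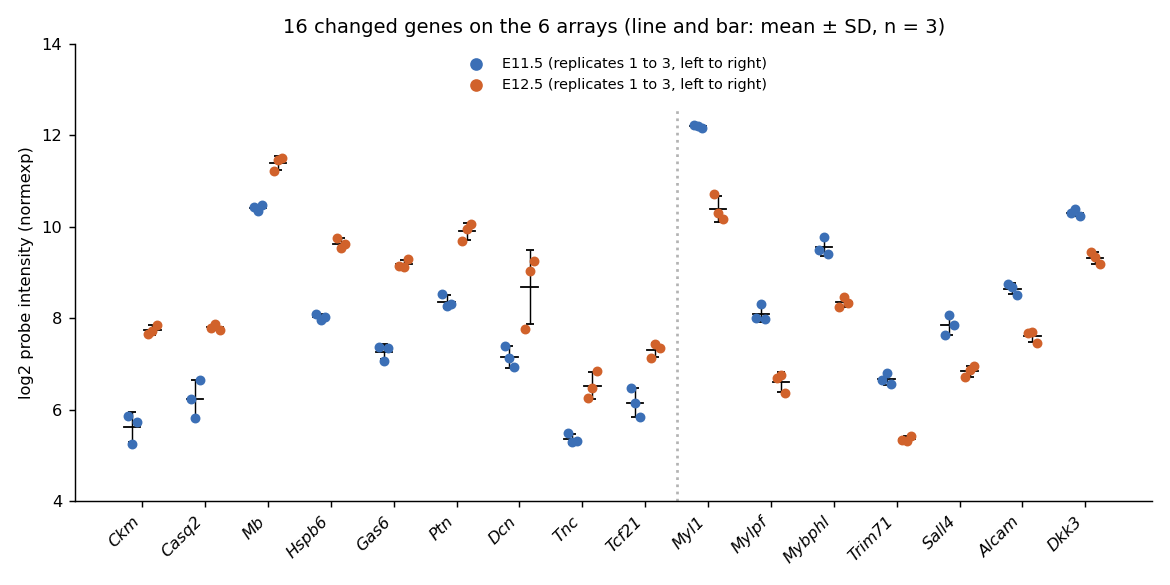
Log2 intensity of 16 changed genes on each of the 6 arrays, E11.5 in blue and E12.5 in orange, with the mean and SD of the 3 arrays of a stage as line and bar; heights of different genes are not comparable, since each has its own probe. The 9 genes left of the dotted line rose and the 7 to the right fell, without overlap between stages, and the wide bar of Dcn at E12.5 comes from replicate 1 at 7.76.

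Genes of the extracellular matrix and of fibroblasts formed the list with the highest median. Of 24 tested fibroblast and mesenchymal markers 6 rose (Dcn, Ogn, Tnc, Col1a1, Vim and Bgn), against 1.04% of all named genes, and 0 fell. Their median change was 0.55 against -0.01 over all genes, and 13 had arrays that did not overlap upward, against 9.27% of all named genes. Dcn, the collagen-binding proteoglycan decorin, stood at 7.40, 7.12 and 6.94 at E11.5 and at 7.76, 9.04 and 9.25 at E12.5. It rose 2.89-fold (log2 change 1.53, SE 0.27, adjusted p = 0.00174), with E12.5 replicate 1 far below the other E12.5 arrays and just above E11.5. Without that array the change of Dcn was 1.99. Ogn, the related proteoglycan osteoglycin, went from 6.38, 5.43 and 6.18 to 6.95, 7.43 and 7.94 (2.71-fold, log2 change 1.44, SE 0.26, adjusted p = 0.00186, and 0.0803 without background correction); 2 of its 3 probes had the opposite sign. Tnc, tenascin C, a matrix protein of tissue remodelling, rose 2.23-fold from 5.49, 5.30 and 5.31 to 6.26, 6.47 and 6.85 (log2 change 1.16, SE 0.16, adjusted p = 8.8e-05).

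Vim, the mesenchymal intermediate filament vimentin, rose 1.95-fold, from 9.26, 9.43 and 8.95 to 10.28, 10.22 and 10.03 (log2 change 0.96, SE 0.17, adjusted p = 0.00194). It did not share the order of Dcn, since its E12.5 replicate 1 was the highest. Bgn, biglycan, went from 8.59, 8.49 and 8.04 to 9.04, 9.36 and 9.43 (log2 change 0.90, SE 0.18, adjusted p = 0.00700), a call lost without E11.5 replicate 3 or E12.5 replicate 3 (adjusted p up to 0.0782). Col1a1, the main fibrillar collagen chain, was at 6.47, 5.82 and 5.78 and then at 6.74, 7.22 and 7.44, a change of 1.11 (2.15-fold, SE 0.23, adjusted p = 0.00709). That call was lost in 5 of 14 alternatives, among them those without E11.5 replicate 2, E11.5 replicate 3 or E12.5 replicate 3, with an adjusted p of up to 0.184. Pdgfra, a receptor of fibroblast precursors, was at 8.02, 7.42 and 7.35 and then 7.83, 8.48 and 8.68. The stages overlapped and the change of 0.73 did not pass (SE 0.25, adjusted p = 0.209). Its change was 0.98 without E12.5 replicate 1.

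The summed level of the fibroblast list was 4674, 4528 and 4018 at E11.5 and 5436, 6270 and 6705 at E12.5, lowest at E12.5 in replicate 1. Its members Ddr2 and Dpt were not above background on any of the 6 arrays. Without E12.5 replicate 1, 7 of its members rose, and without background correction, E11.5 replicate 3 or E12.5 replicate 3 the count was 4. Endothelial markers summed to 2535, 2449 and 1979 and then 2089, 2915 and 2803, again lowest at E12.5 in replicate 1, and their part in these results was not tested. Of 22 endothelial and endocardial genes 1 rose and 0 fell, against 1.04% and 1.07% of all named genes, with a list median of 0.15. The riser was Robo4, a receptor of vessel cells (log2 change 0.81, SE 0.20, adjusted p = 0.0316). The call of Robo4 was lost in 6 of 14 alternatives, among them those without E11.5 replicate 2, E11.5 replicate 3, E12.5 replicate 2 or E12.5 replicate 3, with an adjusted p of up to 0.209. Pecam1, the pan-endothelial adhesion protein, changed by 0.34 (SE 0.19, adjusted p = 0.557). Without E12.5 replicate 1, 3 genes of the list rose.

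Beyond the fibroblast list, Mfap4, a protein of elastic microfibrils, went from 6.14, 5.75 and 5.69 to 6.79, 7.16 and 7.16 (2.26-fold, log2 change 1.18, SE 0.18, adjusted p = 0.000305). It was the 1 member that rose of 24 tested genes of basement membrane and matrix, and 0 fell, against 1.04% and 1.07% of all named genes. The median change of that list was 0.28, and 10 members had arrays that did not overlap upward, against 9.27% of all named genes. Without E12.5 replicate 1, 3 genes of that list rose. Mmp2, a gelatinase that cleaves matrix, rose 1.85-fold (log2 change 0.89, SE 0.22, adjusted p = 0.0299) as the 1 of 15 metalloproteinase genes and inhibitors, against 1.04% of all named genes. Its call was lost in 7 of 14 alternatives, among them those without E11.5 replicate 2, E11.5 replicate 3, E12.5 replicate 2 or E12.5 replicate 3, with an adjusted p of up to 0.212. Of 18 tested genes of cushions, valves and cartilage 2 fell and 1 rose (Cd44), against 1.07% and 1.04% of all named genes. The other 15 did not pass, and the list median was -0.14. Hapln1, which links hyaluronan to proteoglycans, fell from 6.42, 6.16 and 5.68 to 5.33, 5.38 and 5.01 (log2 change -0.85, SE 0.16, adjusted p = 0.00309). Vcan, the hyaluronan-binding proteoglycan versican, fell from 7.84, 7.93 and 7.84 to 7.26, 7.18 and 6.80 (log2 change -0.79, SE 0.15, adjusted p = 0.00404), and its adjusted p was 0.0530 without E12.5 replicate 3.

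Epicardial and mesothelial markers moved in both directions, with 2 rises and 5 falls among 18 tested genes, against 1.04% and 1.07% of all named genes, and a median of -0.11. Tcf21, a transcription factor of fibroblast precursors in the epicardium, went from 6.48, 6.15 and 5.84 to 7.13, 7.43 and 7.35. That was a 2.22-fold rise without overlap (log2 change 1.15, SE 0.19, adjusted p = 0.00103). Krt19, an epithelial keratin, also rose, from 6.47, 5.998 and 6.53 to 6.83, 7.16 and 6.94 (log2 change 0.64, SE 0.15, adjusted p = 0.0271). That call was lost in 4 of 14 alternatives, namely with only the E11.5 and E12.5 arrays in the fit and without E11.5 replicate 2, E12.5 replicate 2 or E12.5 replicate 3, with an adjusted p of up to 0.244.

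Alcam, an adhesion protein of the epicardium and of embryonic cardiomyocytes, fell 2.05-fold from 8.74, 8.69 and 8.52 to 7.68, 7.70 and 7.46 (log2 change -1.03, SE 0.13, adjusted p = 2.11e-05). Upk1b, a uroplakin of mesothelial surfaces, was at 5.81, 5.76 and 5.57 at E11.5 and not above background on any E12.5 array (4.96, 4.77 and 4.52), at least 1.62-fold lower (adjusted p = 0.000923). Another uroplakin gene, Upk3b, fell from 6.79, 6.47 and 6.03 to 5.66, 5.57 and 5.86 (log2 change -0.73, SE 0.19, adjusted p = 0.0494). Its call was lost in 9 of 14 alternatives, among them those without any 1 of the 6 arrays other than E11.5 replicate 3, with an adjusted p of 0.107 without E12.5 replicate 1 and of up to 0.305. Krt8, a keratin of simple epithelia, fell from 7.31, 7.05 and 7.15 to 6.35, 6.45 and 6.55 (log2 change -0.72, SE 0.14, adjusted p = 0.00350). Slit3, a secreted guidance protein, fell from 6.13, 6.33 and 6.23 to 5.33, 5.48 and 5.46 (log2 change -0.81, SE 0.13, adjusted p = 0.000504). The T-box gene Tbx18, an epicardial marker, was lower on each E12.5 array (5.57, 5.36 and 5.70 against 6.13, 6.01 and 5.87), but its change of -0.45 did not pass (SE 0.15, adjusted p = 0.170).

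Several secreted factors rose. Gas6, the ligand of the receptor tyrosine kinases Tyro3, Axl and Mertk, stood at 7.37, 7.08 and 7.36 and then at 9.15, 9.13 and 9.29. It rose 3.78-fold with the smallest adjusted p among the rises named here (log2 change 1.92, SE 0.13, adjusted p = 2.01e-09). Ptn, the heparin-binding growth factor pleiotrophin, rose 2.89-fold from 8.53, 8.27 and 8.31 to 9.69, 9.95 and 10.06 (log2 change 1.53, SE 0.15, adjusted p = 9.42e-07). Inhba, the subunit of activin A, rose 2.58-fold from 6.31, 5.86 and 6.12 to 7.01, 7.59 and 7.78 (log2 change 1.36, SE 0.18, adjusted p = 6.12e-05). It was the 1 member of 23 tested genes of the BMP and TGF-beta pathways to pass, against 2.11% of all named genes. Ccdc3, a secreted coiled-coil protein, went from 6.68, 6.52 and 6.58 to 7.19, 8.05 and 8.21 (log2 change 1.22, SE 0.20, adjusted p = 0.000953), with E12.5 replicate 1 lowest of its stage; without that array its change was 1.53. In the guidance list of 25 genes 2 rose and 2 fell, against 1.04% and 1.07% of all named genes. Sema5a, a semaphorin, rose from 7.01, 6.75 and 7.25 to 7.81, 8.09 and 8.42 (2.14-fold, log2 change 1.10, SE 0.16, adjusted p = 0.000245). Plxna2, the gene of a semaphorin receptor, rose by 0.73 (SE 0.14, adjusted p = 0.00296). The other gene of that list that fell beside Slit3 was Sema3a, with a change of -0.46 (adjusted p = 0.0499); its call was lost in 9 of 14 alternatives, among them those without any 1 of the 6 arrays, with an adjusted p of up to 0.237.

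Other signalling genes fell. The shares to set beside the list counts are 1.07% of all named genes for falls and 1.04% for rises. Dkk3, a secreted relative of Wnt antagonists, dropped 1.97-fold from 10.31, 10.38 and 10.23 to 9.45, 9.35 and 9.19 (log2 change -0.98, SE 0.15, adjusted p = 0.000285), alone among 20 genes of the Wnt pathway. Bmpr1b, a BMP receptor that was not on the pathway list, fell from 6.41, 6.79 and 6.50 to 5.54, 5.44 and 5.69 (log2 change -1.01, SE 0.16, adjusted p = 0.000384). Fgf7, a growth factor made by mesenchyme for epithelia, fell by 0.66 on the log2 scale (SE 0.13, adjusted p = 0.00534), alone among 17 FGF and EGF family genes. Igfbpl1, related to the binding proteins of insulin-like growth factors, fell 2.17-fold from 8.80, 8.90 and 8.59 to 7.70, 7.56 and 7.68 (log2 change -1.12, SE 0.13, adjusted p = 5.98e-06). Igf2 itself was level, at 13.90, 13.67 and 13.82 and then 13.87, 13.89 and 13.86 (log2 change 0.07, adjusted p = 0.889). Of 21 genes of the insulin-like growth factor axis and imprinted growth genes, Mest, an imprinted gene expressed from the paternal allele, fell by 0.73 on the log2 scale (SE 0.17, adjusted p = 0.0230). Its call was lost in the 4 alternatives without E11.5 replicate 1, E11.5 replicate 2, E12.5 replicate 2 or E12.5 replicate 3, with an adjusted p of up to 0.198.

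Genes known from early embryos and stem cells were among the falls. Of 10 tested genes of the Lin28, Igf2bp and let-7 target list 4 fell and 0 rose, with a median change of -0.36 against -0.01 over all genes, and 1.07% of all named genes fell. Trim71, a ubiquitin ligase and classic let-7 target, was at 6.64, 6.80 and 6.56 and then at 5.34, 5.32 and 5.44. The stages lay more than 1 log2 unit apart, a 2.46-fold fall (log2 change -1.30, SE 0.14, adjusted p = 1.84e-06). Igdcc3, a cell surface protein of the immunoglobulin superfamily, fell from 7.86, 7.94 and 7.84 to 6.92, 6.75 and 7.04 (1.97-fold, log2 change -0.98, SE 0.15, adjusted p = 0.000280). Arid3b, a DNA-binding protein, fell from 7.86, 7.93 and 8.21 to 7.14, 7.21 and 7.27 (log2 change -0.80, SE 0.14, adjusted p = 0.00222). Its relative Arid3a fell by 0.63 on the log2 scale (SE 0.15, adjusted p = 0.0229); that call was lost in 5 of 14 alternatives, among them those without E11.5 replicate 2, E11.5 replicate 3, E12.5 replicate 1 or E12.5 replicate 3, with an adjusted p of up to 0.162.

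Lin28a was not above background on any E11.5 array (4.85, 4.88 and 4.95) and lay at 4.96, 5.01 and 5.46 at E12.5. Igf2bp1, an RNA-binding protein of fetal growth, went from 10.26, 10.27 and 10.27 to 9.49, 9.86 and 9.77 by its brightest probe. The stages did not overlap, and the change of -0.56 missed the threshold (adjusted p = 0.0523, and 0.0260 to 0.204 over the alternatives), while 2 of its 4 probes were called lower. Outside the list, Sall4, a zinc finger factor of stem cells, fell 2.02-fold from 7.63, 8.08 and 7.85 to 6.71, 6.87 and 6.95 (log2 change -1.01, SE 0.14, adjusted p = 9.08e-05). Gldc, the glycine-cleaving enzyme, fell from 6.72, 7.06 and 6.75 to 5.71, 5.95 and 5.87 (log2 change -1.003, SE 0.14, adjusted p = 0.000169).

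**Figure D3:**
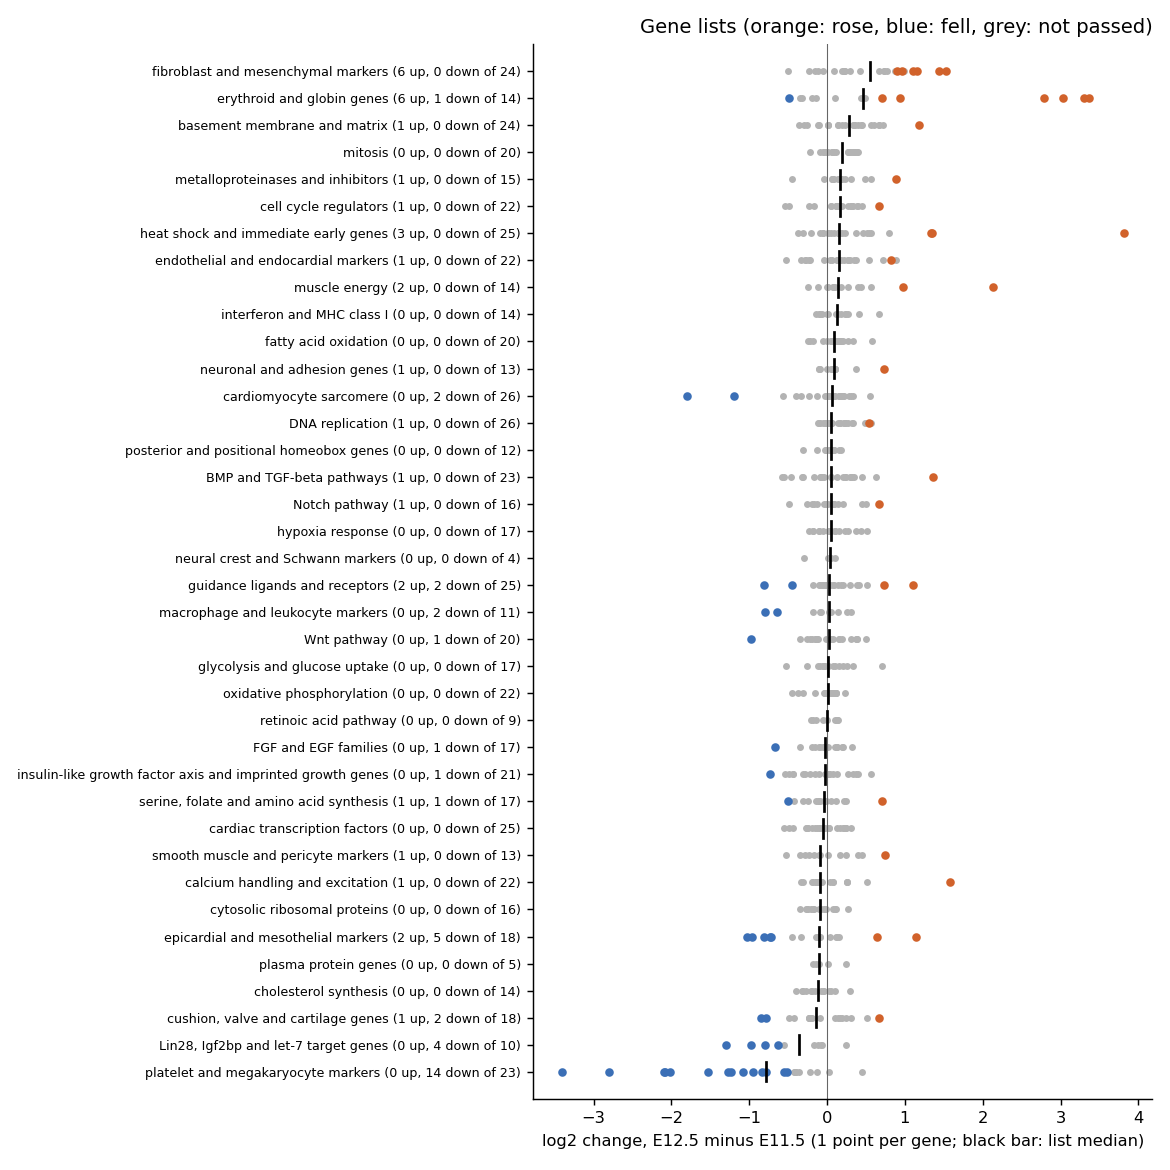
Log2 change from E11.5 to E12.5 of each tested gene in 38 lists, 1 point per gene, with the list median as a black bar; orange genes rose, blue genes fell and grey genes did not pass. Fibroblast markers have the highest median (0.55); platelet markers have the lowest, and the Lin28, Igf2bp and let-7 target list the next lowest (-0.36).

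Transcription regulators and signalling proteins of other kinds were also among the largest rises. Meox1, a homeobox factor known from somites, rose 2.79-fold from 5.91, 4.87 and 5.38 to 6.78, 6.68 and 7.14 (log2 change 1.48, SE 0.23, adjusted p = 0.000384). Nfix, a nuclear factor I protein, rose 2.46-fold from 6.74, 6.22 and 6.34 to 7.31, 7.77 and 8.12 (log2 change 1.30, SE 0.20, adjusted p = 0.000370). Mlf1, a regulator named from myeloid leukemia, rose 2.38-fold from 8.35, 7.90 and 8.24 to 9.27, 9.44 and 9.52 (log2 change 1.25, SE 0.17, adjusted p = 9.01e-05). In all of them the lowest value was E11.5 replicate 2. Septin6, a GTP-binding protein of the cytoskeleton, rose 2.92-fold from 7.91, 7.52 and 7.99 to 9.31, 9.34 and 9.40 (log2 change 1.54, SE 0.15, adjusted p = 6.36e-07). Chn2, a GTPase-activating protein for Rac, rose 2.67-fold from 5.73, 5.33 and 5.30 to 6.58, 6.77 and 7.26 (log2 change 1.42, SE 0.16, adjusted p = 6.14e-06). Ppp1r1b, a phosphatase inhibitor best known from dopamine-responsive neurons, rose 2.47-fold (log2 change 1.31, SE 0.16), with another of its 3 probes of opposite sign. Pid1, a phosphotyrosine-binding protein of insulin signalling, rose 2.41-fold from 5.08, 4.77 and 4.70 to 5.79, 6.26 and 6.31 (log2 change 1.27, SE 0.19, adjusted p = 0.000180).

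Among genes of nutrient transport and metabolism, Slc38a5, a glutamine transporter, rose 3.18-fold. Its values were 7.61, 6.78 and 7.26 and then 8.33, 8.94 and 9.38 (log2 change 1.67, SE 0.27, adjusted p = 0.000604), with a wide spread in both stages. Txnip, which binds thioredoxin and restrains glucose uptake, rose 2.66-fold from 9.19, 8.81 and 8.29 to 10.40, 10.12 and 10.002 (log2 change 1.41, SE 0.21, adjusted p = 0.000233). Fcgrt, the neonatal Fc receptor, changed by 1.20 (2.29-fold, SE 0.22, adjusted p = 0.00216, and 0.0804 without background correction). Transporters among the falls were Slc13a4, a sulfate carrier, which went from 6.46, 7.02 and 6.58 to 5.68, 5.55 and 5.57 (log2 change -1.09, SE 0.17, adjusted p = 0.000523), and Slc51a, a subunit of an organic solute carrier, which went from 7.38, 7.66 and 7.78 to 6.51, 6.59 and 6.71, a fall of 1 log2 unit (SE 0.15, adjusted p = 0.000321).

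In several lists of metabolic genes no member was called. Of all named genes 1.04% rose and 1.07% fell, so lists of this size can easily hold no call. Glycolysis and glucose uptake (17 tested genes), fatty acid oxidation (20), oxidative phosphorylation (22), cholesterol synthesis (14) and the hypoxia response (17) each had 0 rises and 0 falls, with medians between -0.12 and 0.09. Pfkp, the platelet-type phosphofructokinase, came closest, at 8.15, 8.39 and 8.54 and then 9.65, 8.76 and 8.80, with a change of 0.71 (adjusted p = 0.0520) and E12.5 replicate 1 far above the others; without that array its change was 0.42 (adjusted p = 0.271). Slc2a1, the glucose transporter GLUT1, was lower on each E12.5 array (11.58, 11.76 and 11.91 against 12.47, 12.12 and 12.26), and its change of -0.53 did not pass (adjusted p = 0.0723). In serine, folate and amino acid synthesis 1 of 17 genes rose, Psat1 of serine synthesis (log2 change 0.70, adjusted p = 0.0299), and 1 fell, the asparagine synthetase gene Asns (log2 change -0.51, adjusted p = 0.0494). Both calls were lost without any 1 of E11.5 replicates 2 and 3 and the 3 E12.5 arrays, with an adjusted p of up to 0.152 for Psat1 and 0.200 for Asns, and that of Asns also without E11.5 replicate 1.

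Of all named genes 1.04% rose and 1.07% fell, and few cell cycle genes passed the test either. Of 26 DNA replication genes, Cdc45, a helicase component, rose by 0.53 on the log2 scale (adjusted p = 0.0496), a pass that 8 of 14 alternatives did not give, among them those without any 1 of the 6 arrays (adjusted p up to 0.251). None of 20 mitosis genes passed. Their median change was 0.19, 15 of them had a positive change, and 8 had arrays that did not overlap upward, against 9.27% of all named genes. Of 22 cell cycle regulators 1 rose, the inhibitor gene Cdkn2c, from 5.91, 6.02 and 6.04 to 6.38, 6.70 and 6.90 (log2 change 0.67, SE 0.13, adjusted p = 0.00440, and 0.0557 without E12.5 replicate 3). Ccnd2, cyclin D2, was lower on each E12.5 array (10.51, 10.55 and 10.69 against 11.27, 10.90 and 11.03), but its change of -0.49 did not pass (adjusted p = 0.0560) and 2 of its 4 probes had the opposite sign. Cytosolic ribosomal proteins (16 tested), interferon and MHC class I genes (14), the retinoic acid pathway (9) and positional homeobox genes (12) had 0 rises and 0 falls.

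The remaining large falls were in genes of different known roles. Rec114, known from meiotic recombination, went from 7.26, 7.62 and 7.59 to 5.90, 6.46 and 6.12 (2.51-fold, log2 change -1.33, SE 0.18, adjusted p = 8.19e-05). Wdr93, a WD repeat gene, went from 7.24, 7.68 and 7.44 to 6.28, 6.39 and 6.12 (2.28-fold, log2 change -1.19, SE 0.13, adjusted p = 2.41e-06). Hs6st2, which adds sulfate to heparan chains, fell 2.05-fold from 8.66, 8.57 and 8.82 to 7.67, 7.54 and 7.73 (log2 change -1.04, SE 0.13, adjusted p = 1.58e-05), with another of its 3 probes of opposite sign. Each of these genes was lower on every E12.5 array than on any E11.5 array. Cadm1, a cell adhesion molecule, fell 2.02-fold (log2 change -1.01, SE 0.15, adjusted p = 0.000259), and Cldn11, a tight junction claudin, fell 1.99-fold from 7.21, 6.90 and 6.65 to 5.70, 5.77 and 6.31 (log2 change -0.99, SE 0.19, adjusted p = 0.00347).

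A further group of falls has known roles in platelets. Rgs10, a regulator of G protein signalling, was at 7.97, 7.77 and 7.52 and then at 6.28, 6.30 and 6.17, a 2.83-fold fall (log2 change -1.50, SE 0.16, adjusted p = 1.35e-06). Gnaz, the G protein alpha z subunit, fell from 6.78, 6.46 and 6.54 to 5.62, 5.59 and 5.47 (log2 change -1.04, SE 0.14, adjusted p = 9.95e-05), and Mpig6b, a receptor of megakaryocytes, from 6.10, 5.87 and 5.76 to 5.11, 4.91 and 4.71 (log2 change -1.002, SE 0.14, adjusted p = 8.07e-05). In all of them E11.5 replicate 1 was the highest array. The set-aside platelet list moved with them, with 14 of 23 tested members lower, against 1.07% of all named genes, and 0 higher (median -0.79) and a summed level of 2628, 2252 and 1868 at E11.5 and 851, 935 and 875 at E12.5, also highest in E11.5 replicate 1. No member of the list was below background on all 6 arrays. Erythroid and globin genes summed to 1620, 1486 and 1803 and then 3210, 3216 and 4158. Of 14 tested 6 rose and 1 fell, against 1.04% and 1.07% of all named genes. Of 11 macrophage and leukocyte genes 0 rose and 2 fell, against 1.04% and 1.07% of all named genes. The falls were in Coro1a (log2 change -0.80, adjusted p = 0.00503) and Laptm5 (-0.64, adjusted p = 0.0383). Cd14 and C1qc were not above background on any of the 6 arrays. The call of Coro1a was lost without E11.5 replicate 1 (highest adjusted p over the alternatives 0.0608), and that of Laptm5 without E11.5 replicate 1, E11.5 replicate 2, E12.5 replicate 1 or E12.5 replicate 3 (up to 0.274). The part of these cell types in the results was not tested.

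The step from E11.5 to E12.5, the first day of the series, was then set against the change from E13.5 to E16.5, a contrast of stages outside the 6 arrays, which still enter the common estimate of the spread. In it 18.6% of named genes passed, 8.85% higher and 9.73% lower. Of the 125 genes that rose in the first day, 32 rose again later (25.6%), 27 fell later (21.6%) and 66 did not pass. Of the 123 that fell, 37 fell again (30.1%), 9 rose (7.32%) and 77 did not pass. These shares were not tested against each other.

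Ckm kept rising, by 2.47 on the log2 scale from E13.5 to E16.5 (SE 0.16), as did Casq2, by 2.06 (SE 0.16), and Dcn, by 1.46 (SE 0.27). Gas6 changed by 0.05 (SE 0.13) and Ptn by 0.14 (SE 0.15) over those 3 days, neither of which passed. Before them, from E12.5 to E13.5, the mean of Gas6 went from 9.19 to 9.98 and that of Ptn from 9.90 to 10.63. Between E13.5 and E16.5 Ptn was lower, at a mean of 10.10 at E14.5 against 10.63 at E13.5 and 10.77 at E16.5. Chn2 reversed, with a later change of -1.67 (SE 0.16), and so did Tnnt1 (-1.90, SE 0.22), Mcam, a cell adhesion protein of mural cells (0.74 in the first day and -1.15 later), and Inhba (-0.82, SE 0.18). Cd44, the hyaluronan receptor, had a first-day change of 0.67 (adjusted p = 0.0390) and a later change of -1.39. The call of Mcam was lost without E11.5 replicate 2 (adjusted p = 0.0573), and that of Cd44 without any 1 of the 6 arrays (up to 0.196), where 2 of its 6 probes also had the opposite sign. Mybphl went on falling, by 1.27 on the log2 scale (SE 0.20), and Myl1 fell by 0.55 (SE 0.17), whereas Trim71 changed by -0.25, which did not pass.

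**Figure D4:**
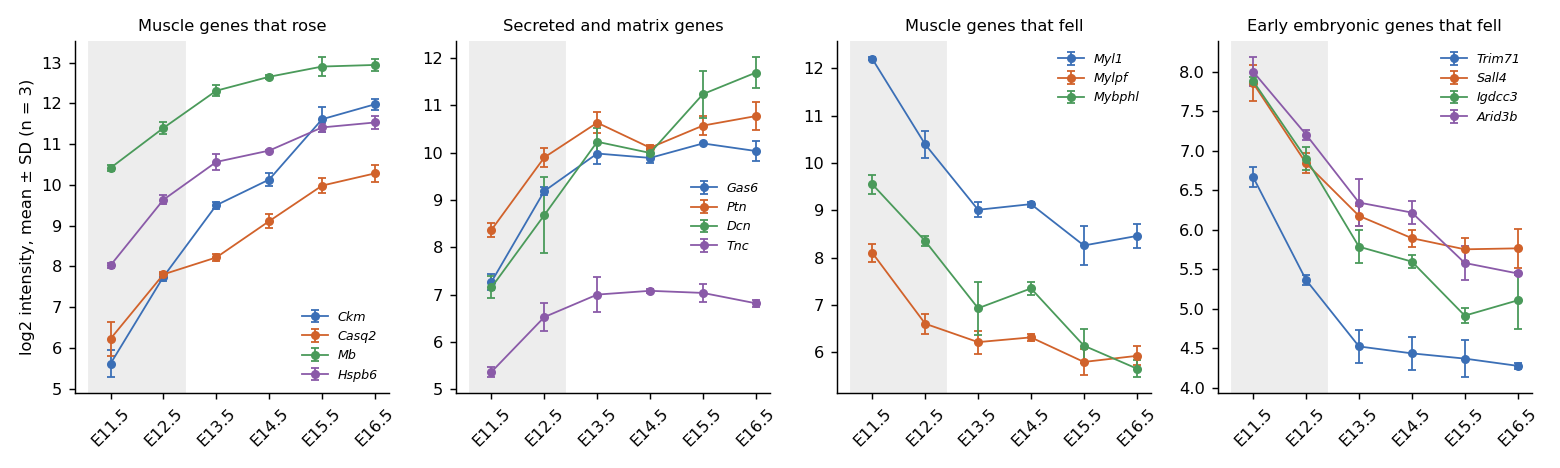
Mean log2 intensity (points) and SD (bars, n = 3 arrays) at each stage from E11.5 to E16.5 for named genes that rose or fell, in 4 groups; the grey band marks the step from E11.5 to E12.5. Ckm and Casq2 rise through the whole series, Gas6 and Ptn end at E16.5 near their E13.5 level, and Sall4, Igdcc3 and Arid3b go on falling after E12.5.

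A contrast of the first-day change minus the mean daily change from E13.5 to E16.5 tested this difference directly. The day from E12.5 to E13.5 enters neither side of it. The contrast passed for 499 of 25369 probes (1.97%) and for 338 named genes (2.63%). Among the genes called in the first day it passed for 94 of the 125 rises and 83 of the 123 falls, each time in the direction of the first-day change. These counts share the E11.5 and E12.5 arrays with the call itself and are given as a description. The largest positive differences were in Chn2 (1.98 log2 units per day, SE 0.17, adjusted p = 7.69e-08), Gas6 (1.90, SE 0.14), Septin6 (1.65), Tnnt1 (1.64) and Slc38a5 (1.64). The largest negative ones were in Myl1 (-1.62, SE 0.18, adjusted p = 5.28e-06), Rgs10 (-1.61), Mylpf (-1.40), Rgcc (-1.36) and Dlk1 (-1.30). From E12.5 to E13.5, outside the contrast, the mean of Septin6 went from 9.35 to 10.27. Over the same day Myl1 went from 10.40 to 9.01, Mylpf from 6.61 to 6.22 and Rgs10 from 6.25 to 6.11. Without E11.5 replicate 2 the contrast passed for 243 probes, without E12.5 replicate 3 for 293 and without E11.5 replicate 3 for 321.

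**Figure D5:**
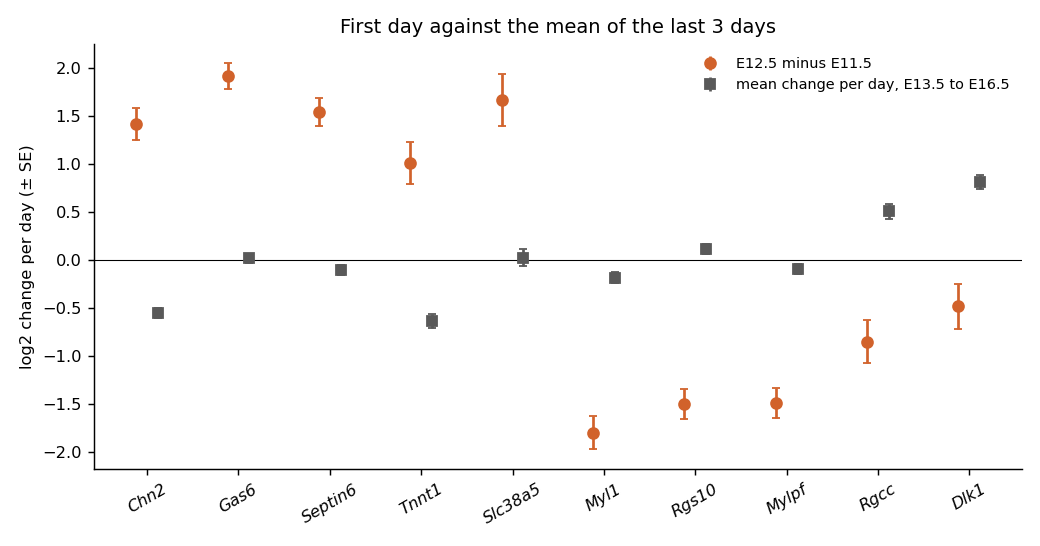
Log2 change from E11.5 to E12.5 (orange circles) and mean log2 change per day from E13.5 to E16.5 (grey squares), each with its SE, for the 10 genes with the largest differences between them. Chn2 and Tnnt1 rose in the first day and fell later, and Rgcc and Dlk1, neither of which passed in the first day, rose later.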

How the data were processed

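The authors deposited linear probe intensities of 18 Illumina mouse arrays, 3 per stage; the submitters' processing notes name GenomeStudio 2011.1, and settings are not given in the sources used here. Once sorted, the deposited values differed between arrays by no more than 0.0873%, so they had been quantile-normalized, which was not repeated. Another table, without normalization, was left out, since its 36 columns bear names that match no sample.

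limma 3.58.1 in R 4.3.3 corrected the background by normexp with an offset of 16, and log2 values then spanned 4.02 to 14.08. A probe was above background over a deposited intensity of 105.4 (5.02 on log2), which is 1.64 SD over the mode, with the SD taken from values below the mode. Probes above it on at least 3 of 18 arrays were kept, 25369 of 45281. For a gene below it on all arrays of a stage the fold is a lower bound (at least N): the brighter stage's mean against the mean, over the dim stage's arrays, of the higher of 2 values, the dimmest above-background signal and the probe's own. Symbols came from the platform annotation (34885 probes with 1 symbol, 18 with several, 10378 without); 34807 matched RefSeq by Entrez identifier. A list's summed level adds linear background-corrected intensities.

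All 18 arrays entered 1 limma fit with a coefficient per stage, and contrasts were adjusted by the Benjamini-Hochberg method over all kept probes at 0.05. Named are the 20 largest rises and falls without overlap between stages, up to 4 passing members of each list (or the 2 largest changes), the 5 largest differences each way from the later daily change, and 12 genes whatever their values, with predicted names left out. The Vim, Bgn, Krt8, Krt19, Upk3b, Myl7, Myoz2, Fabp3, Nkx2-5, Lin28a and Igf2bp1 values that fall outside this rule were added after their values were seen. The comparison, the lists and the rule were chosen with earlier results of these data known. The fit was tested on simulated data for the first-day contrast (25369 probes, 200 changed): it recovered 94% of changes of 1 log2 unit and 100% of those of 2, and called 10 unchanged probes.

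Replicate numbers are shared between stages. Deviations of same-numbered E11.5 and E12.5 arrays correlated at -0.04, 0.01 and 0.10, so the numbers were not taken as pairs. Alternatives were the background correction, its offset, the filter, the arrays in the fit, array weights and a robust fit. A replicate block and leaving out each array were the others. The mean of a gene's probes was a separate setting, which gave 130 rises and 151 falls among 12871 genes. It is not among the alternatives counted for single genes.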

Additional observations from a re-analysis of the deposited data

Results flagged for a closer look

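For 10 genes the change from E11.5 to E12.5 differed from the mean daily change between E13.5 and E16.5 by a test of that difference, and they are those with the largest differences in each direction. The day from E12.5 to E13.5 enters neither side of that test. The differences, in log2 units per day, were 1.98 for Chn2, 1.90 for Gas6, 1.65 for Septin6, 1.64 for Tnnt1 and 1.64 for Slc38a5, and -1.62 for Myl1, -1.61 for Rgs10, -1.40 for Mylpf, -1.36 for Rgcc and -1.30 for Dlk1. Rgcc, a regulator of the cell cycle induced by complement, was at 6.63, 6.33 and 6.51 at E11.5 and at 5.91, 5.81 and 5.19 at E12.5, a change of -0.85 (SE 0.22) that did not pass (limma, adjusted p = 0.0534), and later rose by 0.51 per day (SE 0.07). Dlk1, an imprinted gene of the Notch ligand family, was at 8.06, 7.92 and 7.94 and then at 7.17, 7.44 and 7.86, a change of -0.49 (SE 0.23, adjusted p = 0.446), and later rose by 0.81 per day (SE 0.08). Tnnt1 is the gene of this group whose first-day call was lost in some alternatives.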

How the results depend on the processing

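Of the 80 genes named by the rule that passed, 60 passed in all 14 alternatives and 20 fell short in at least 1. None of the 80 changed sign. Genes added after their values were seen are outside these counts. Among them, Bgn, Krt19, Upk3b, Nfia, Nfib, Ltbp4, Septin3, Myoz1, Atp2a1 and Btk lost their call in at least 1 alternative. Vim, Krt8, Ltbp3, Trim54, Mrvi1 and Fermt3 kept theirs in all 14. The mean of a gene's probes was not among the 14, and whether single calls hold under it was not tested. Of the 51 genes named by the rule that did not pass, 12 did so in at least 1 alternative. Of these 51, 1 changed sign without passing, Myh7 (0.18, and -0.04 without E12.5 replicate 1). Nkx2-5, added outside the rule, also changed sign without passing (0.13, and -0.09 to 0.25 over the alternatives). The 403 changed probes (207 higher, 196 lower) became 726 with array weights (373 and 353), all 403 among them. Rises of at least 2-fold went from 60 probes to 22 without background correction and 33 with an offset of 50, and falls from 37 to 11 and 15; neither setting moved the number of changed probes past 1.5 times. Leaving out 1 array gave 208 to 393 changed probes, 97 to 216 rises and 111 to 177 falls, 46 to 71 rises and 32 to 44 falls of at least 2-fold, and 3572 to 3977 probes between E16.5 and E13.5, which has 3794. The 499 probes that differed from the later daily change became 848 with array weights and 243 to 472 without 1 array. The block on replicate number, whose pairing was not borne out, called 480 probes (247 higher, 233 lower), 398 of them among the 403. Without background correction 41.3% of calls were rises, against 51.4%. The cause of these shifts was not tested, except that leaving out an array leaves fewer samples. Of the 138 genes that fell, 10 were below background on every E12.5 array.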

Other observations

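Families of genes related to the largest changes were chosen after their values were seen, and their counts are a description. All 4 nuclear factor I genes, which encode DNA-binding regulators of differentiation, were higher on every E12.5 array than on any E11.5 array, against 9.27% of all named genes. Rises passed in 3 of them, against 1.04% of all named genes: Nfix (log2 change 1.30), Nfia (0.59, SE 0.13, limma adjusted p = 0.0171) and Nfib (0.48, SE 0.12, adjusted p = 0.0499). Of the 10 tested probes of Nfib 1 was called and 1 had the opposite sign. The calls of Nfia and Nfib were lost in 5 and 7 of 14 alternatives, with an adjusted p of up to 0.139 and 0.227. Nfic had a change of 0.45 (adjusted p = 0.175). Of 4 latent TGF-beta binding proteins of the matrix, Ltbp3 went from 6.19, 5.97 and 6.43 to 6.86, 6.96 and 7.33 (log2 change 0.85, SE 0.15, adjusted p = 0.00212) and Ltbp4 from 6.23, 5.76 and 5.47 to 6.51, 6.98 and 6.98 (1.005, SE 0.23, adjusted p = 0.0229), while Ltbp1 and Ltbp2 did not pass and another probe of each of the 2 risers had the opposite sign. The call of Ltbp4 was lost in 7 of 14 alternatives (adjusted p up to 0.291). Septin6 and Septin3 rose out of 10 septins, against 1.04% of all named genes. Septin3 went from 5.84, 5.70 and 5.81 to 6.23, 6.36 and 6.61 (log2 change 0.62, adjusted p = 0.00670), a call lost without E11.5 replicate 2 or E12.5 replicate 3 (adjusted p up to 0.0770). Of the Gas6 receptors, Axl was higher on each E12.5 array (9.57, 9.48 and 9.54 against 9.21, 8.995 and 9.13) without passing (log2 change 0.42, adjusted p = 0.405), and Tyro3 and Mertk changed by -0.03 and -0.14.

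Of 12 tested genes chosen for fast skeletal muscle, 5 fell, against 1.07% of all named genes, 0 rose and 7 did not pass. The set did not hold Ckm or the slow skeletal Tnnt1, which rose. Those that fell were Myl1, Mylpf, Trim54 (log2 change -0.76, adjusted p = 0.00303), Myoz1 (-0.71, adjusted p = 0.0346) and Atp2a1 (-0.57, adjusted p = 0.0229). The calls of Myoz1 and Atp2a1 were lost in 6 and 5 of 14 alternatives (adjusted p up to 0.262 and 0.190). Tnni2, the fast troponin I gene, was level at 10.05, 9.63 and 9.82 and then 9.66, 9.96 and 10.10. Sall4 was the 1 of 4 Sall factors to change. Midkine, Mdk, the relative of Ptn, had a change of -0.29 that did not pass (adjusted p = 0.443). Of 10 genes known from platelets that were not on the platelet list, 7 fell, against 1.07% of all named genes, and 0 rose. Among those that fell was Mrvi1, from 6.88, 6.67 and 6.69 to 5.99, 6.06 and 6.05 (log2 change -0.71, adjusted p = 0.00500). Fermt3 and Btk were not above background on any E12.5 array and were at least 1.70-fold and 1.49-fold lower. The call of Btk was lost without E11.5 replicate 1 or E12.5 replicate 2 (adjusted p up to 0.0943). The day from E11.5 to E12.5 had 403 changed probes; the following days had 240 rises and 292 falls, 360 and 439, 466 and 333, and 1 and 0.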
